A study of Mus musculus with 33 samples.

Results

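The genes described here encode parts of the mitochondrial respiratory chain. They are all genes on the array whose symbol starts with Nduf, Sdh (Sdha to Sdhd), Uqcr, Cox4, Cox5, Cox6, Cox7, Cox8 or Atp5, each read by 1 probe, the one with the highest mean in the authors' normalized table. The rule gave 64 genes of the 10445 with a named probe, and all 64 were among the 10412 genes that passed the detection filter and were tested. They comprise 27 subunits of complex I, of which 5 are core and 22 supernumerary, 6 assembly factors of complex I, 2 subunits of complex II, 5 of complex III, 11 of complex IV, 12 of complex V and the supercomplex factor Cox7a2l. Subunits such as Sdha, Sdhb, Ndufs1, Uqcrfs1, Cox5b and Cox8a were not analysed here.

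Total RNA from mouse uterus was hybridised to 33 single-colour bead arrays. Pregnant tissue, which the labels call the uterine microenvironment, was taken at days counted from fertilization, with 4 arrays each at days 4, 8, 10 and 11, 6 arrays at day 6 and 5 at day 12. The control was uterus of non-pregnant mice (6 arrays). All mice were C57BL/6 and 8 weeks old. The labels do not say whether embryos were removed, whether animals were pooled, or whether arrays of a group came from separate animals, so the p-values measure the spread between arrays, part of which may be technical.

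The respiratory chain sits in the inner mitochondrial membrane. Complexes I and II pass electrons from NADH and succinate to ubiquinone, complex III passes them on to cytochrome c, and complex IV hands them to oxygen. Complexes I, III and IV pump protons, and complex V, the ATP synthase, uses the proton gradient to make ATP. In early mouse pregnancy the uterine stroma around the implanted embryo proliferates and turns into decidua, and later the placenta, the yolk sac and the embryonic heart and blood form beside it.

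Levels below are background-corrected, quantile-normalized log2 intensities, and differences are in log2 units with the standard error (SE) of the fit. A gene is said to have risen or fallen where limma's moderated test, adjusted by Benjamini-Hochberg over all 10412 genes, gave an adjusted p under 0.05. The 6 comparisons with non-pregnant uterus share its arrays, and each pair of successive days shares arrays with the next. In whole tissue, fewer cells of a type and less RNA per cell cannot be told apart.

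Between 15040 and 18692 probes were detected on 31 arrays, against 13149 on replicate 4 of day 6 and 13097 on replicate 4 of the non-pregnant group, and counts of the 64 genes called are given with and without these 2 dim arrays, as are single calls that turn on them where they bear on a statement made here. Of the 64 genes, 58 were detected on all 33 arrays. Markers of uterine smooth muscle (10 measured of 11) were detected in every group. Their summed intensity, a sum of linear normalized values, was 29620 to 44410 at day 12 and 70690 to 128600 in non-pregnant uterus. The summed trophoblast markers (11 of 16) were at 38520 or more on every array from day 10 on and at 588.2 or less on every array of day 6, day 4 and non-pregnant uterus. The erythroid markers (9 of 12) were at 45530 or more and at 277.4 or less on the same arrays. When arrays were scaled to equal medians in place of quantile normalization, 42 of the 61 differences named by rule no longer passed and none changed sign.

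Across the 7 groups, the share of respiratory chain genes that changed was below that of all genes. The F test passed for 40 of the 64 (62.5%), against 80.2% of all genes tested. The distance between a gene's highest and lowest group mean had a median of 0.54 log2 units for the 64 genes and 1.01 for all genes. At least 1 log2 unit was spanned by 8 of the 64, against 5263 of the 10412 genes tested. By complex, the F test passed for 2 of 5 core and 14 of 22 supernumerary subunits of complex I, 4 of 6 assembly factors, 1 of 2 genes of complex II, 4 of 5 of complex III, 9 of 11 of complex IV, 5 of 12 of complex V, and Cox7a2l. The time of the highest and lowest level was unevenly spread. The highest group mean lay at day 8 for 24 of the 64 genes (37.5%, against 15.9% of all genes) and at day 6 for 16 (25%, against 9.41%). The lowest lay at day 10 for 24 (37.5%, against 12.4%) and in non-pregnant uterus for 18 (28.1%, against 21.5%). These shares are descriptions, and no test was made of the list.

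At day 4, 1 respiratory chain gene rose (background 4.46% of all genes) and 1 fell (background 4.52%). At day 6, 19 rose (29.7%, against 20% of all genes) and 4 fell (6.25%, against 18.9%). At day 8, 23 rose (35.9%, against 24.8%) and 8 fell (12.5%, against 26.2%). The median difference from non-pregnant uterus over the 64 genes was 0.18 at day 6 and 0.23 at day 8, where the median of all genes tested was -0.00 and -0.02. At both days the share that rose was above the background and the share that fell was below it. Without the 2 dim arrays, day 4 had 6 rises and 4 falls (backgrounds 9.3% and 10.7%). Day 6 then had 27 rises and 5 falls (backgrounds 21.6% and 22.3%), and day 8 had 31 rises and 7 falls (27.4% and 29.9%). The day 6 count fell to 15 without non-pregnant replicate 1. With arrays scaled to equal medians day 6 had 5 rises and 1 fall and day 8 had 15 and 2, and with cyclic loess scaling day 4 had 1 and 2 and day 6 had 10 and 5. The series matrix gave 1 rise and 2 falls at day 4. No share of all genes was worked out for these scalings, the series matrix or the fit without non-pregnant replicate 1. Their counts therefore have no background.

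Markers of other cell types moved in the same groups. Of 13 decidual stroma markers, 11 rose and 1 fell at day 6, and 10 rose and 1 fell at day 8. Their summed intensity was 20350 to 26120 in non-pregnant uterus, 32070 to 44500 at day 6 and 50320 to 54160 at day 8, and Prl8a2, Prl3c1 and Bmp2 were detected on no non-pregnant array. Of 12 cell cycle genes, 11 rose and 0 fell at each of the 2 days, with sums of 898.4 to 2659 in non-pregnant uterus, 8898 to 11610 at day 6 and 10820 to 12260 at day 8. Of 11 epithelial markers, 0 rose while 11 fell at day 6 and 10 at day 8, with sums of 4673 to 79790 in non-pregnant uterus, 1635 to 24750 at day 6 and 1756 to 2759 at day 8. Of 10 macrophage markers, 0 rose while 8 fell at day 6 and 7 at day 8. Smooth muscle markers (10 measured) had 2 rises and 0 falls at day 6, and 1 rise and 5 falls at day 8. Trophoblast markers (11 measured) had 1 rise at day 6 and 5 at day 8, with 0 falls at either day. The part of these markers in the rises of the respiratory chain genes was not tested.

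From day 10 the balance was different. At day 10, 3 genes rose (4.69%, against 26.6% of all genes) and 17 fell (26.6%, against 27.4%). At day 11, 10 rose (15.6%, against 30.7%) and 8 fell (12.5%, against 27.5%). At day 12, 9 rose (14.1%, against 31.8%) and 12 fell (18.8%, against 29%). The medians over the 64 genes were -0.02, 0.04 and 0.04 at days 10, 11 and 12, and those over all genes -0.00, 0.04 and 0.03. At these days rises were rarer among the 64 genes than in the background, and at day 10 falls were about as frequent as in the background. With arrays scaled to equal medians the calls were 1 rise and 3 falls at day 10, 1 and 5 at day 11, and 3 and 5 at day 12. With cyclic loess scaling the day 11 calls were 4 rises and 12 falls. The series matrix gave 13 rises and 11 falls at day 12. For these scalings and the series matrix the share of all genes called was not worked out, so these counts have no background. Without the 2 dim arrays the calls were 6 rises and 16 falls at day 10, 14 and 10 at day 11, and 13 and 12 at day 12. The backgrounds of that fit were 29.3% and 31.1%, 33.1% and 30.8%, and 33.6% and 31.8% at these days.

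Between successive days, most calls came from day 8 to day 10. At day 10 no respiratory chain gene rose above its day 8 level (background 9.99%), also at an unadjusted p under 0.05, while 17 fell (26.6%, against 8.06% of all genes). The median difference was -0.30 over the 64 genes and -0.03 over all genes, and 8 of the 64 differences were above 0. Without the 2 dim arrays 26 fell, against 12.9% of all genes. Scaled to equal medians, the arrays gave 1 fall. At the other steps the calls were few. From day 4 to day 6, 5 genes rose (7.81%, background 13.1%) and 0 fell (background 12.6%; also 0 at an unadjusted p under 0.05). From day 6 to day 8, 4 rose (6.25%, background 10.1%) and 1 fell (1.56%, background 10.3%); with no background correction this step had 5 rises and 0 falls. From day 10 to day 11, 2 rose (background 8.23%) and 0 fell (background 5.95%; 1 at an unadjusted p under 0.05). Between days 11 and 12 limma called 0 rises (background 3.37%) and 0 falls (background 3.26%), where an unadjusted p under 0.05 gave 2 rises and 0 falls. Without the 2 dim arrays these 4 steps had 8, 7, 5 and 1 rises and 0, 1, 1 and 0 falls. The backgrounds of that fit were 14.8%, 11.9%, 12.5% and 5.61% for rises and 14%, 13.1%, 10.5% and 5.54% for falls. Array weights moved the counts further, to 21 rises and 1 fall from day 4 to day 6 and to 40 falls from day 8 to day 10. The share of all genes called was not worked out with these weights, with equal medians or with no background correction. The counts of those fits therefore have no background share.

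**Figure D1:**
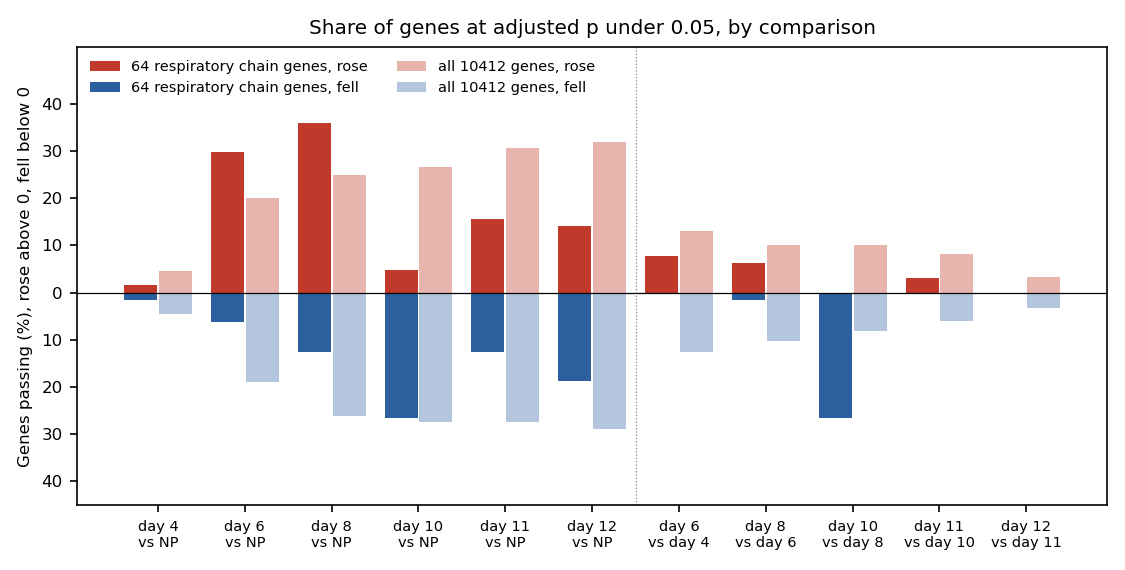
Share of genes (vertical axis, percent) that rose (bars above 0) or fell (bars below 0) at an adjusted p under 0.05, for the 64 respiratory chain genes (dark bars) and all 10412 genes tested (pale bars), with the 6 comparisons with non-pregnant uterus (NP) to the left of the dotted line and the 5 successive steps to the right. The dark bar above 0 is the taller one at days 6 and 8 (29.7% against 20%, and 35.9% against 24.8%), and the dark bar below 0 is the longer one for day 10 against day 8 (26.6% against 8.06%).

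**Figure D2:**
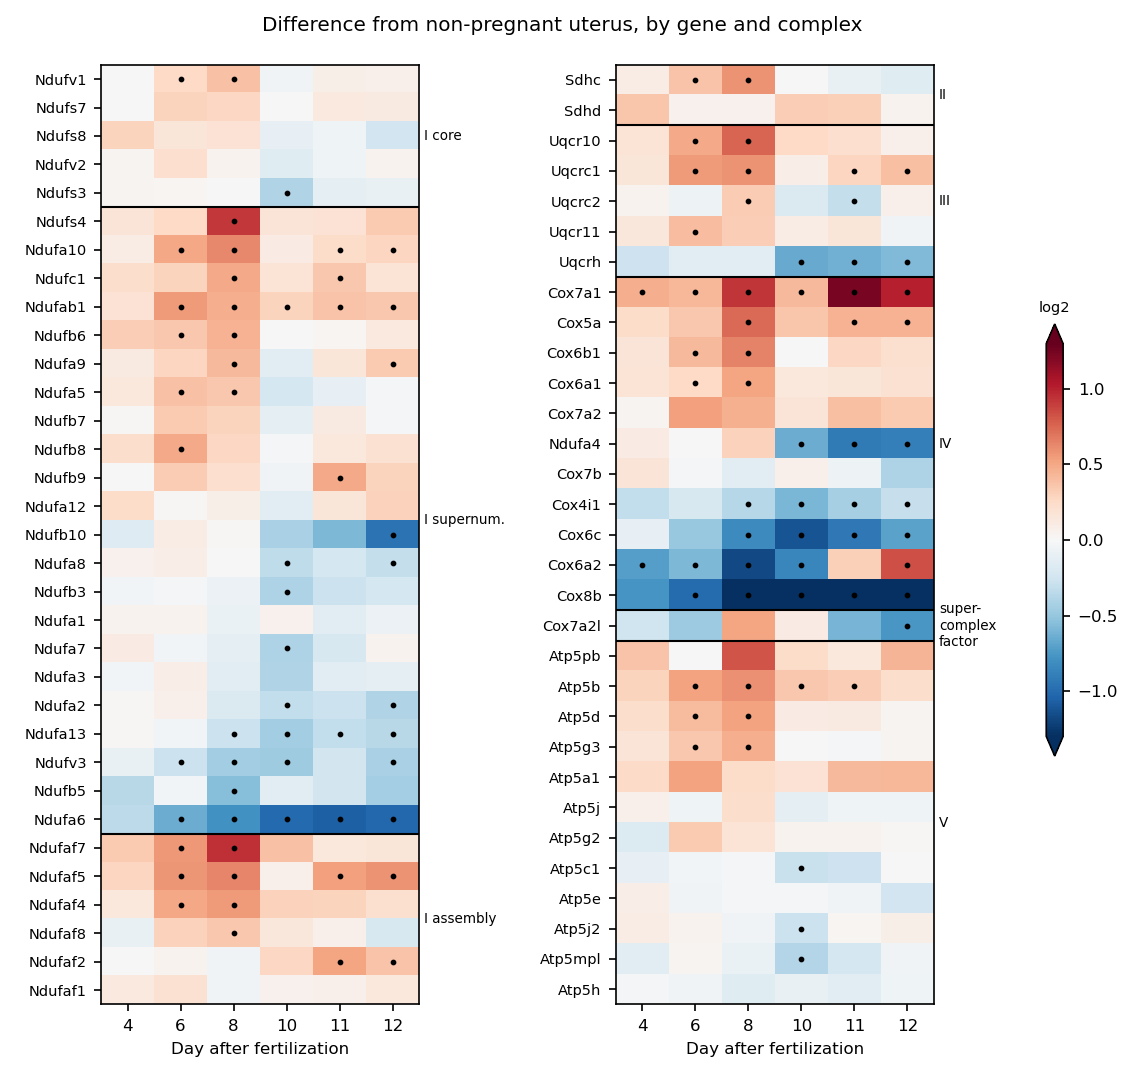
Difference of each of the 64 genes from non-pregnant uterus (colour, log2 units, red higher and blue lower, colours saturating beyond the ends of the scale) at each day after fertilization (horizontal axis), with genes grouped by complex and ordered within it by their day 8 value. Black dots mark an adjusted p under 0.05, and 23 rises and 8 falls are marked at day 8.

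Complex I takes electrons from NADH, and its core subunits carry the flavin and the iron-sulphur clusters. Of the 5 core subunits measured, 1 rose at days 6 and 8, 1 fell at day 10, and 3 passed in no comparison with all arrays in the fit. Ndufv1, which binds NADH, had levels of 12.39, 12.36, 12.37 and 12.47 at day 8, against 11.77 to 12.34 with a median of 12.00 in non-pregnant uterus. All 4 day 8 arrays lay above every non-pregnant array, by a mean of 0.38 (SE 0.11, adjusted p = 0.006974). At day 10 its levels were 11.89, 11.86, 12.01 and 12.15, below all 4 at day 8 (difference -0.42, SE 0.13, adjusted p = 0.01687). Its day 6 rise of 0.26 no longer passed without the dim arrays (adjusted p = 0.05368). Ndufs3, a core subunit of the matrix arm, fell at day 10, with levels of 9.99, 9.63, 9.79 and 9.46, against 9.90 to 10.39 with a median of 10.09 in non-pregnant uterus (difference -0.39, SE 0.14, adjusted p = 0.02101). The 2 groups overlapped by 1 day 10 array. The iron-sulphur subunits Ndufs7 and Ndufs8 and the flavoprotein subunit Ndufv2 passed in no comparison with all arrays, with differences from non-pregnant uterus between -0.25 and 0.29. Without the dim arrays all 3 passed in some. Ndufs8 was then higher than in non-pregnant uterus by 0.43, 0.34 and 0.33 at days 4, 6 and 8 (adjusted p = 0.00796, 0.01093 and 0.01576). Ndufs7 was higher by 0.31 and 0.36 at days 6 and 8 (adjusted p = 0.01919 and 0.00719), and Ndufv2 by 0.26 at day 6 (adjusted p = 0.02036).

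The supernumerary subunits surround the core and went both ways. At day 8, 7 of the 22 rose (31.8%, against 24.8% of all genes) and 4 fell (18.2%, against 26.2%). At day 10, 1 rose (4.55%, against 26.6%) and 7 fell (31.8%, against 27.4%), a share of falls near the background. Ndufa10, a subunit related to nucleoside kinases, had 12.09, 12.25, 12.30 and 12.19 at day 8, against 11.49 to 11.84 with a median of 11.54 in non-pregnant uterus. The groups did not overlap (difference 0.62, SE 0.10, adjusted p = 3.335e-06), nor did those at day 6 (difference 0.50, SE 0.09, adjusted p = 2.623e-05). At day 10 the levels of Ndufa10 were 11.64, 11.73, 11.65 and 11.76, all below those at day 8 (difference -0.51, SE 0.11, adjusted p = 0.0005967). At days 11 and 12 it was again above non-pregnant uterus, by 0.24 and 0.28, with groups that overlapped.

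Ndufab1, the mitochondrial acyl carrier protein, serves both complex I and the synthesis of fatty acids in mitochondria. It rose at each day from 6 to 12. Its levels were 12.27 to 12.55 with a median of 12.32 at day 6, against 11.54 to 12.05 with a median of 11.81 in non-pregnant uterus (difference 0.55, SE 0.10, adjusted p = 6.849e-05). The later differences were 0.48, 0.29, 0.37 and 0.35 at days 8, 10, 11 and 12, and the groups overlapped from day 10 on. Ndufs4, an accessory subunit of the NADH-binding arm, had 11.60, 11.40, 11.50 and 11.77 at day 8, against 10.41 to 11.09 with a median of 10.60 in non-pregnant uterus (difference 0.92, SE 0.18, adjusted p = 0.0001162). At day 10 it had 11.01, 10.88, 10.82 and 10.53, all below day 8 (difference -0.76, SE 0.20, adjusted p = 0.007173). The other 3 detected probes of Ndufs4 gave smaller day 8 differences, of 0.42, 0.44 and 0.28, of which the second passed. From day 8 to day 10 they gave -0.45, -0.53 and -0.09, and none passed (adjusted p = 0.1499, 0.0544 and 0.8705).

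Ndufa6, an accessory subunit of the peripheral arm that belongs to the LYR protein family, took the opposite course. Its levels were 11.27, 10.65, 10.83 and 10.79 at day 10, 10.99, 10.87, 10.67 and 10.80 at day 11, and 11.08, 10.99, 10.78, 10.97 and 10.55 at day 12, against 11.43 to 12.47 with a median of 11.90 in non-pregnant uterus. None of these 13 arrays reached the lowest non-pregnant array. The differences of Ndufa6 were -0.65, -0.79, -1.01, -1.06 and -1.02 at days 6, 8, 10, 11 and 12 (SE 0.17 to 0.19, adjusted p between 8.207e-06 and 0.002409). Ndufb9, a subunit of the membrane arm with a low signal, passed at day 11 (difference 0.49, SE 0.21, adjusted p = 0.04996) with overlapping groups, a call that held in 18 of 47 alternatives (adjusted p up to 0.2766). Beyond these, the supernumerary subunits that fell at day 10 lay between -0.47 (Ndufv3) and -0.32 (Ndufa2).

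Among the 6 assembly factors, which help to build complex I without staying in it, 4 rose at day 8 (66.7%, against 24.8% of all genes) and 0 fell (background 26.2%). Ndufaf7, a methyltransferase that modifies a core subunit, had 7.92, 7.65, 7.87 and 7.71 at day 8, against 6.63 to 7.10 with a median of 6.87 in non-pregnant uterus (difference 0.95, SE 0.24, adjusted p = 0.001631). On 5 of the 6 day 6 arrays Ndufaf7 lay between 7.63 and 7.77. On the dim day 6 array it was 5.87 and not detected, and without the dim arrays the day 6 difference was 0.88 in place of 0.56. Ndufaf5, an arginine hydroxylase that acts early in assembly, had 7.72, 7.64, 7.69 and 7.87 at day 8, against 6.66 to 7.95 with a median of 6.99 in non-pregnant uterus (difference 0.64, SE 0.15, adjusted p = 0.0009383). The highest non-pregnant value came from the dim array. At day 10 Ndufaf5 had 7.04, 7.32, 7.22 and 7.07, below day 8 (difference -0.57, SE 0.17, adjusted p = 0.01591). At days 11 and 12 it was above non-pregnant uterus by 0.54 and 0.58. Ndufaf8, which acts with NDUFAF5 in human cells, passed at day 8 (difference 0.35, adjusted p = 0.0423). Its rise from day 4 to day 6 of 0.39 was lost without the dim arrays (adjusted p = 0.07183).

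Complex II links the chain to the citric acid cycle, and 2 of its 4 subunits were measured, both membrane anchors. Sdhc had 11.43, 11.46, 11.48 and 11.70 at day 8, against 10.68 to 11.78 with a median of 10.81 in non-pregnant uterus (difference 0.58, SE 0.15, adjusted p = 0.001497). The highest non-pregnant value was that of the dim array, and the other 5 lay at or below 10.83. Without the dim arrays the day 8 difference of Sdhc was 0.75 (adjusted p = 1.249e-07). At day 10 Sdhc had 10.99, 10.85, 10.99 and 10.89, all below day 8 (difference -0.59, SE 0.16, adjusted p = 0.008978). Sdhd was detected on 29 of 33 arrays, ranged from 4.72 to 6.91, and passed in no comparison.

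In complex III, which oxidises ubiquinol, 3 of 5 genes rose at day 8 (60%, against 24.8% of all genes) and 4 of 5 fell from day 8 to day 10 (80%, against 8.06%). Uqcr10, a small subunit, had 13.61, 13.70, 13.75 and 13.49 at day 8, against 12.60 to 13.24 with a median of 12.83 in non-pregnant uterus. The groups did not overlap (difference 0.75, SE 0.13, adjusted p = 1.602e-05). At day 10 it had 13.26, 13.02, 13.12 and 13.20, all below day 8 (difference -0.49, SE 0.14, adjusted p = 0.01369). Uqcrc1, a core protein related to processing peptidases, had 11.29, 11.46, 11.41 and 11.36 at day 8, against 10.42 to 11.17 with a median of 10.81 in non-pregnant uterus (difference 0.58, SE 0.12, adjusted p = 0.0001572). It had fallen to 10.87, 10.86, 10.95 and 10.84 at day 10, against those day 8 levels (difference -0.50, SE 0.13, adjusted p = 0.006267). Uqcrc1 was also above non-pregnant uterus by 0.56 at day 6 (adjusted p = 0.0001175). At days 11 and 12 it was above it by 0.28 and 0.39 (adjusted p = 0.04878 and 0.003336). The day 11 call held in 18 of 47 alternatives.

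The other core protein of complex III, Uqcrc2, had 12.87, 12.62, 12.84 and 12.91 at day 8, against 12.30 to 12.59 with a median of 12.51 in non-pregnant uterus (difference 0.33, SE 0.13, adjusted p = 0.03847). At day 10 Uqcrc2 had 12.26, 12.28, 12.31 and 12.29, below day 8 (difference -0.52, SE 0.15, adjusted p = 0.01043). At day 11 it differed from non-pregnant uterus by -0.31 (adjusted p = 0.04854). Uqcrh, the hinge protein that contacts cytochrome c1, did not rise at any day. It had 12.50, 12.20, 12.43 and 12.09 at day 10, against 12.79 to 13.15 with a median of 12.95 in non-pregnant uterus, without overlap. Its differences were -0.66, -0.62 and -0.57 at days 10, 11 and 12 (SE 0.13 to 0.14, adjusted p between 0.0001882 and 0.0003482).

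**Figure D3:**
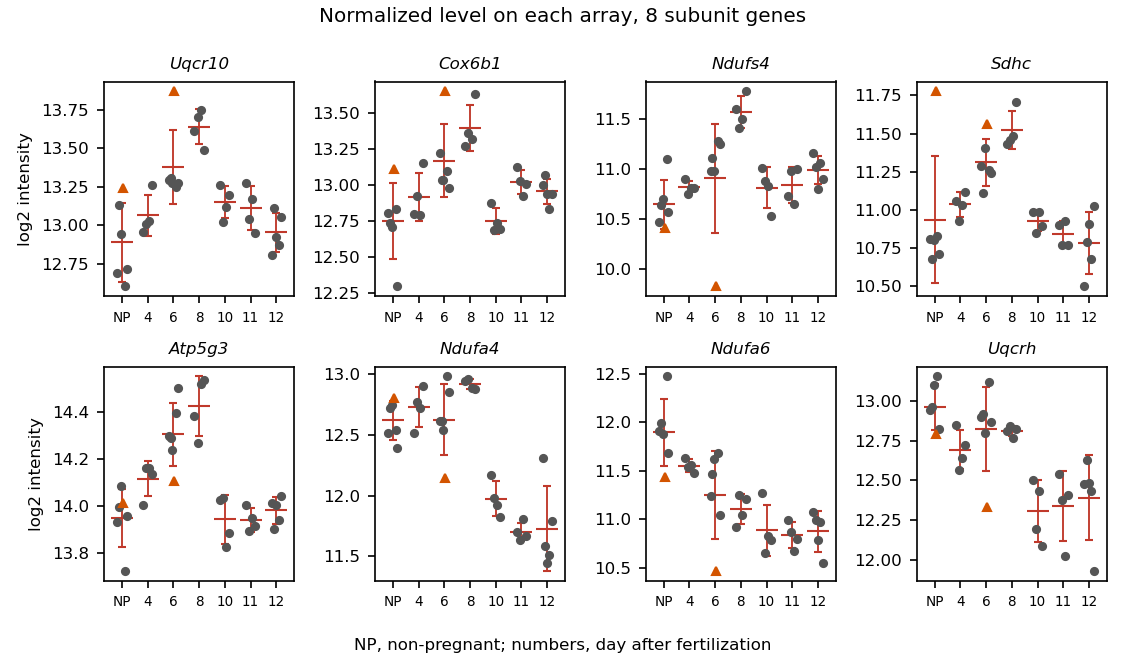
Normalized level (vertical axis, log2 intensity, scaled per gene) of 8 genes on each of the 33 arrays, by group (horizontal axis: NP, non-pregnant, then day after fertilization), with orange triangles for the 2 dim arrays and red bars for the group mean and SD. Uqcr10, Cox6b1, Ndufs4, Sdhc and Atp5g3 stand highest at day 8, and all 4 day 10 arrays of each lie below its day 8 arrays; Ndufa4, Ndufa6 and Uqcrh are low from day 10 to day 12.

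In complex IV, 4 of 11 genes rose at day 8 (36.4%, against 24.8% of all genes) and 4 fell (36.4%, against 26.2%). Among the common subunits, Cox6b1, on the intermembrane side, had 13.27, 13.36, 13.32 and 13.63 at day 8, against 12.30 to 13.11 with a median of 12.77 in non-pregnant uterus. The groups did not overlap (difference 0.65, SE 0.13, adjusted p = 0.000127). At day 10 Cox6b1 had 12.88, 12.68, 12.74 and 12.70, below day 8 (difference -0.65, SE 0.14, adjusted p = 0.001223). Cox5a, which faces the matrix, had 12.52, 12.46, 12.52 and 12.64 at day 8, against 11.20 to 12.13 with a median of 11.89 in non-pregnant uterus (difference 0.73, SE 0.16, adjusted p = 0.0003225). Cox5a was still higher than in non-pregnant uterus at days 11 and 12, by 0.45 at each.

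Ndufa4, first counted with complex I and now placed in complex IV, showed the largest fall of the 64 genes from day 8 to day 10. Its levels were 12.17, 11.98, 11.93 and 11.83 at day 10, against 12.95, 12.96, 12.89 and 12.88 at day 8 (difference -0.94, SE 0.16, adjusted p = 4.076e-05). At days 11 and 12 Ndufa4 lay -0.92 and -0.89 from non-pregnant uterus, without overlap. Cox4i1, the common isoform of subunit 4, also fell at days 8, 10, 11 and 12, with differences from non-pregnant uterus of -0.37, -0.60, -0.43 and -0.30 (adjusted p between 0.0003556 and 0.03829). Cox6c, chosen here after its values were seen, fell at the same 4 days, with differences of -0.82, -1.12, -0.93 and -0.70. Cox7b, detected on 26 of 33 arrays, passed in no comparison.

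Several complex IV subunits come as a common form and a form typical of heart and skeletal muscle. Cox6a1, the common form, had 12.71, 12.94, 12.83 and 12.91 at day 8, against 11.97 to 12.60 with a median of 12.40 in non-pregnant uterus (difference 0.52, SE 0.11, adjusted p = 0.0001496). Cox6a2, the muscle form, went the other way, and at day 8 it was detected on 0 of 4 arrays, against 5 of 6 in non-pregnant uterus. It was at least 1.35-fold lower at day 8, a bound taken against the lowest signal of probes above background (measured means 4.57 at day 8 and 5.75 in non-pregnant uterus, adjusted p = 1.385e-05). Cox6a2 had already passed as lower than in non-pregnant uterus at day 4 (adjusted p = 0.02343), a call that held in 39 of 47 alternatives. From day 6 to day 8 it also fell (adjusted p = 0.0328), which held in 34 of 47. At day 11 Cox6a2 had 6.09, 6.25, 6.00 and 5.89, against 4.54, 4.77, 4.93 and 5.38 at day 10, where 1 array detected it (difference 1.15, SE 0.22, adjusted p = 0.0003721). At day 12 it had 6.69, 6.39, 6.60, 6.69 and 6.60, against 5.29 to 6.67 with a median of 5.68 in non-pregnant uterus (difference 0.84, SE 0.19, adjusted p = 0.0003185).

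Cox7a1, the muscle form of subunit 7a, passed as higher at each day. The day 4 call (adjusted p = 0.04644) held in 17 of 47 alternatives, with an adjusted p up to 0.2267. Its levels were 7.01, 7.38, 7.03 and 6.59 at day 11, against 5.58 to 6.28 with a median of 5.65 in non-pregnant uterus (difference 1.23, SE 0.15, adjusted p = 3.611e-08). The differences at days 4, 6, 8, 10 and 12 were 0.47, 0.43, 0.93, 0.43 and 1.01. Cox7a1 had 6.15, 6.25, 5.97 and 6.42 at day 10, below both day 8 (difference -0.50, adjusted p = 0.03217) and day 11. Cox7a2, the common form, spread over 5.55 to 6.93 within non-pregnant uterus and passed in no comparison with all arrays. Without the dim arrays it was higher by 0.64 at day 6 and 0.61 at day 8 (adjusted p = 0.03115 and 0.04186). Cox8b, the muscle form of subunit 8, was detected on 5 of 6 non-pregnant arrays, on 3 of 4 arrays at day 4, on 3 of 6 at day 6 and on none from day 8 on. It was at least 1.83-, 1.89-, 1.94- and 2.06-fold lower at days 8, 10, 11 and 12 than in non-pregnant uterus (measured means 4.71, 4.39, 4.54 and 4.69, against 6.20, adjusted p between 4.472e-06 and 8.135e-05). The non-pregnant array without detection of Cox8b was the dim one.

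**Figure D4:**
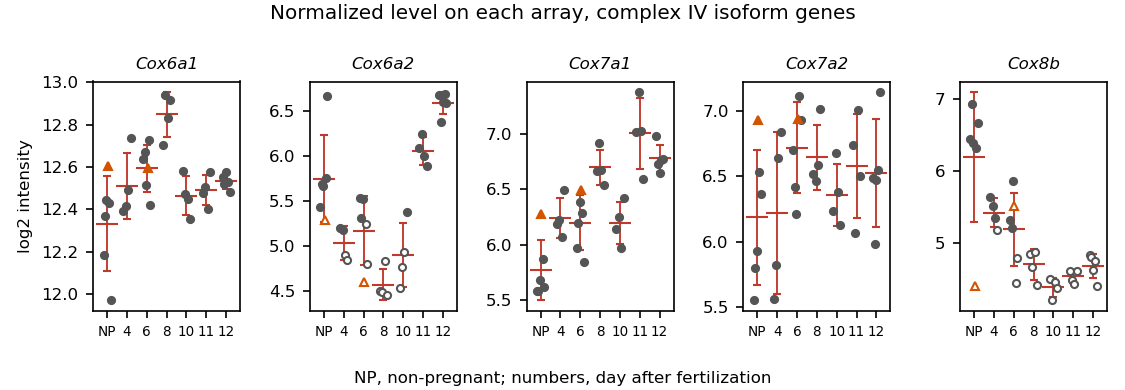
Normalized level (vertical axis, log2 intensity, scaled per gene) of 5 complex IV isoform genes on each of the 33 arrays, by group (horizontal axis: NP, non-pregnant, then day after fertilization); open symbols are arrays where the probe was not detected, orange triangles the 2 dim arrays, and red bars the group mean and SD. Cox6a2 is undetected on all day 8 arrays and between 6.39 and 6.69 at day 12, Cox7a1 reaches 7.38 at day 11, and Cox8b has open symbols alone from day 8 on.

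Striated muscle and heart markers also changed, at days 6 and 8 as well as later. Of 15 measured of 22, 13 rose and 1 fell at day 12 against non-pregnant uterus, and 12 rose and 0 fell from day 10 to day 11. Against non-pregnant uterus, 4 rose and 1 fell at day 6, and 5 rose and 3 fell at day 8. Their summed intensity was 1679 to 5282 in non-pregnant uterus, 4703 to 5871 at day 4, 3711 to 8499 at day 6 and 5180 to 5981 at day 8. It was 4150 to 4566 at day 10, 6344 to 8094 at day 11 and 11520 to 13170 at day 12. Myl7, Myl2, Myh6, Actc1 and Csrp3 were detected on no non-pregnant array. Actc1 was detected on some array at days 6 and 8, and Csrp3 at day 8. All 15 were detected on some array at days 11 and 12. Brown fat also expresses Cox8b, and 5 of 11 adipose markers were measured. At day 4, 4 of the 5 fell while Cox8b did not pass (adjusted p = 0.0971, and 5.997e-05 without the dim arrays). At day 6, 0 of the 5 passed while Cox8b fell (adjusted p = 0.002654). All 5 fell at each of days 8, 10, 11 and 12, and their summed intensity was 575.9 to 2010 at day 8 and 1024 to 12690 in non-pregnant uterus. Car3 and Cidec were detected on no array at days 11 and 12. The part of these markers in the isoform results was not tested.

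Promoters are shown for 2 common subunits with a rise at day 8, Cox6a1 and Cox6b1, and for 2 muscle forms, Cox7a1, which also rose at day 8, and Cox8b, which was undetected from day 8 on. The 250 bases before the annotated start are given for each gene, from RefSeq on build GRCm38.p6, 5′ to 3′ on the gene's strand, with matches in capitals. The motifs searched on both strands were NRF1 (GCGCA, any base, then GCGC) and GABPA (CCGGAAG), which are factors of many mitochondrial genes, YY1 (AAGATGG) and the estrogen-related receptor ERRA (AAGGTCA). Cox6a1 lies on chromosome 5, minus strand, and the window is chr5:115348959-115349208. Cox6b1 lies on chromosome 7, minus strand (chr7:30626115-30626364), Cox7a1 on the plus strand of the same chromosome (chr7:30183921-30184170), and Cox8b on its minus strand (chr7:140900447-140900696).
Cox6a1: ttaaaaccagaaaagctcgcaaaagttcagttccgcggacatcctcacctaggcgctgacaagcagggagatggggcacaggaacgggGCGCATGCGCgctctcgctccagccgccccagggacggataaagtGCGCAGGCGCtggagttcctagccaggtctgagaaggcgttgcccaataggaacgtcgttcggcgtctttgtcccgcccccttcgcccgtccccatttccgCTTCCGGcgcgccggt
Cox6b1: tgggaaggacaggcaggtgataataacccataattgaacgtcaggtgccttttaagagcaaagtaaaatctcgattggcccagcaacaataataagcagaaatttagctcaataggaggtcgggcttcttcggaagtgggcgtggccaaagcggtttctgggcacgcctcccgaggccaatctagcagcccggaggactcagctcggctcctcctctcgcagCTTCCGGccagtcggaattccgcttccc
Cox7a1: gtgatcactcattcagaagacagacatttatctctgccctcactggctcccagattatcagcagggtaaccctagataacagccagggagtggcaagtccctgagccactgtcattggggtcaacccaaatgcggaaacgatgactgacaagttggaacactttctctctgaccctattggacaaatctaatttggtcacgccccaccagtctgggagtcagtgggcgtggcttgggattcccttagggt
Cox8b: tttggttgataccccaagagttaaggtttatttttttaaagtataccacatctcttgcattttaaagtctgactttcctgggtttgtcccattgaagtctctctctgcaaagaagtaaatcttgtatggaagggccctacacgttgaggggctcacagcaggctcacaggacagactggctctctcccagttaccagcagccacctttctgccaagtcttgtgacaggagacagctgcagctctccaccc
The window of Cox6a1 held 2 NRF1 matches and 1 GABPA match on the reverse strand, that of Cox6b1 held 1 GABPA match on the reverse strand, and those of Cox7a1 and Cox8b held none of the 4 motifs. The matches printed did not overlap each other. The windows held 26, 14, 4 and 1 CpG in the order printed.

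Of the 64 genes, 55 matched a RefSeq window of 300 bases, 250 before and 50 after the start, and the same windows of 27025 genes served as background. NRF1 matched in 11 of the 55 (20%, against 4.78% of all genes) and GABPA in 13 (23.6%, against 9.12%). YY1 matched in 9 (16.4%, against 6.48%) and ERRA in 3 (5.45%, against 4.66%). Of 8 complex IV genes with a window, NRF1 matched in 1, GABPA in 2, and YY1 and ERRA in 0. These matches were those of Cox6a1 and Cox6b1, and the other complex IV windows held none. The windows printed above are therefore no comparison of common with muscle forms. A match describes letters in a window and no binding was measured.

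Cox7a2l, listed here as the supercomplex factor, had 11.92, 11.96, 11.78 and 11.85 at day 8, against 9.22 to 11.41 with a median of 11.20 at day 6. The groups did not overlap (difference 0.99, SE 0.30, adjusted p = 0.01986), and the lowest day 6 value was that of the dim array. Without the dim arrays the difference was 0.65 (adjusted p = 0.002341). At day 12 Cox7a2l had 10.79, 10.71, 10.63, 10.63 and 10.30, against 10.15 to 11.96 with a median of 11.58 in non-pregnant uterus (difference -0.75, SE 0.29, adjusted p = 0.02379, and 9.497e-07 without the dim arrays).

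Complex V makes ATP with a catalytic head of alpha and beta chains and a membrane ring of c subunits. Of its 12 genes 3 rose at day 8 (25%, against 24.8% of all genes) and 0 fell (background 26.2%). At day 10, 1 rose (8.33%, against 26.6%) and 3 fell (25%, against 27.4%). The share of rises at day 8 and that of falls at day 10 were thus near the background. Atp5b, the catalytic beta chain, had 14.77, 14.71, 14.92 and 14.85 at day 8, against 14.08 to 14.36 with a median of 14.22 in non-pregnant uterus (difference 0.60, SE 0.12, adjusted p = 0.0001039). It remained above non-pregnant uterus at days 10 and 11, by 0.35 and 0.32, without overlap. Atp5g3, a gene of the c ring, had 14.38, 14.27, 14.52 and 14.54 at day 8, against 13.72 to 14.08 with a median of 13.98 in non-pregnant uterus (difference 0.48, SE 0.09, adjusted p = 8.922e-05). At day 10 Atp5g3 had 14.03, 14.03, 13.83 and 13.89, all below day 8 (difference -0.48, SE 0.10, adjusted p = 0.000758).

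Atp5g2, another c ring gene, passed in the step from day 4 to day 6 (difference 0.52, SE 0.16, adjusted p = 0.01803), with levels of 10.18 to 10.40 and a median of 10.26 at day 6, against 9.94, 9.42, 9.67 and 10.04 at day 4. Atp5mpl, a small subunit of the membrane part, had 11.95, 11.94, 11.72 and 11.94 at day 10, against 11.99 to 12.72 with a median of 12.25 in non-pregnant uterus (difference -0.38, SE 0.12, adjusted p = 0.0079). Atp5a1, the alpha chain, passed in no comparison with its brightest probe, whose levels spread from 6.77 to 8.23 within non-pregnant uterus. Its other detected probe fell at days 10, 11 and 12, with differences of -0.55, -0.52 and -0.50.

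**Figure D5:**
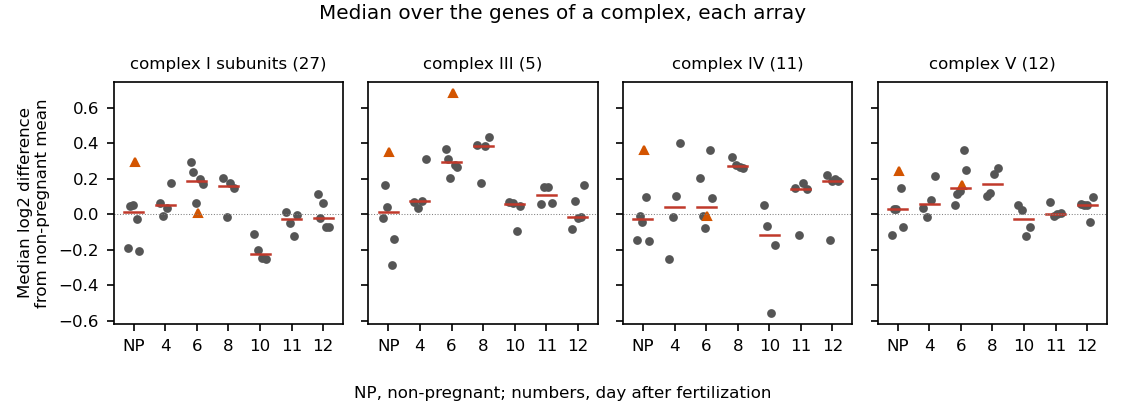
Median, over the genes of a complex, of the difference from each gene's non-pregnant mean (vertical axis, log2 units) on each array, by group (horizontal axis: NP, non-pregnant, then day after fertilization), for complex I subunits (27 genes), complex III (5), complex IV (11) and complex V (12), with orange triangles for the 2 dim arrays and red lines for the group median. The day 10 arrays of complex I lie below 0, and all 4 day 8 arrays of complexes III, IV and V lie above 0.

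Markers of other cell types also changed from day 8 to day 10, where 9.99% of all genes rose and 8.06% fell. At this step 9 of 11 measured trophoblast markers rose and 0 fell, with a summed intensity of 38520 to 46160 at day 10 and 1062 to 1653 at day 8, where Ctsq, Ctsj, Synb, Hand1, Ascl2 and Psg21 were detected on no array. Of 10 yolk sac markers 9 rose and 0 fell (5527 to 6364 at day 10, 460.5 to 614.2 at day 8), with Afp, Apob, Apoa4, Cubn and Rbp4 undetected at day 8. Of 9 erythroid markers 8 rose and 0 fell (45530 to 60520 at day 10, 241.7 to 377.5 at day 8), with Hbb-y, Hba-x, Gata1, Ermap and Hemgn undetected at day 8. Of 13 decidual stroma markers 5 fell and 0 rose (44090 to 54870 at day 10, 50320 to 54160 at day 8). Of 15 striated muscle and heart markers 9 rose and 1 fell (4150 to 4566 at day 10, 5180 to 5981 at day 8), with Myl7, Myl2, Myl3, Myh6, Ttn and Mb undetected at day 8. Of 11 epithelial markers 6 rose and 0 fell (7881 to 9282 at day 10, 1756 to 2759 at day 8). Smooth muscle markers had 1 fall in 10. Of 12 cell cycle genes 0 rose and 0 fell. The part of these markers in the fall of the respiratory chain genes was not tested.

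Other mitochondrial genes, taken from lists chosen for their role, did not all follow the respiratory chain. Of 22 genes of the citric acid cycle and pyruvate dehydrogenase, 0 rose and 8 fell from day 8 to day 10 (36.4%, against 8.06% of all genes), with a median of -0.44. The largest falls at that step were those of Pdk4 (-1.11), an inhibitory kinase of pyruvate dehydrogenase, Pcx (-0.95), the pyruvate carboxylase, Idh3a (-0.85) and Idh3g (-0.62), subunits of isocitrate dehydrogenase. Of 11 genes of mitochondrial fatty acid oxidation, 0 rose and 5 fell (45.5%), with a median of -0.51, led by the thiolase Acaa2 (-1.65), Eci1 (-0.79), the very long chain dehydrogenase Acadvl (-0.77) and Echs1 (-0.53). At day 12 against non-pregnant uterus, 1 gene of fatty acid oxidation rose (9.09%, against 31.8% of all genes) and 6 fell (54.5%, against 29%).

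Genes of the mitochondrial ribosome and of protein import had more rises than falls at each day from 6 to 12. Of 44 measured, 25 rose and 0 fell at day 6, 22 and 0 at day 8, 19 and 1 at day 10, 27 and 0 at day 11, and 23 and 4 at day 12. The shares that rose were 56.8%, 50%, 43.2%, 61.4% and 52.3% at these days, where those of all genes were 20%, 24.8%, 26.6%, 30.7% and 31.8%. From day 8 to day 10, 0 rose and 3 fell (6.82%, against 8.06% of all genes). At day 8 Tomm40, the import channel, was 1.63 above non-pregnant uterus, and the ribosomal protein genes Mrpl3, Mrpl4 and Mrpl18 were 1.23, 0.93 and 0.85 above it. Of 14 genes of electron carriers, 8 rose (57.1%, against 24.8% of all genes) and 0 fell at day 8, led by Cycs, which encodes cytochrome c (1.47), Cyc1, its docking subunit in complex III (1.03), and the ubiquinone synthesis genes Coq7 (0.89) and Coq3 (0.74). From day 8 to day 10, 1 of the 14 rose (7.14%, against 9.99%) and 4 fell (28.6%, against 8.06%), among them Cyc1 (-0.70).

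Of 34 assembly factors outside the symbol rule, 13 rose (38.2%, against 24.8% of all genes) and 1 fell (2.94%, against 26.2%) at day 8, led by Hccs, which attaches haem to cytochrome c (1.12), Cox15 (0.93), a haem synthesis factor for complex IV, Foxred1 (0.90) and Lrpprc (0.89). Of 21 regulators of mitochondrial genes, 7 rose (33.3%, against 24.8%) and 1 fell (4.76%, against 26.2%) at day 8. The coactivator Ppargc1a was detected on 1 of 4 arrays at day 8 and on 5 of 6 in non-pregnant uterus (difference -2.27, SE 0.33, adjusted p = 1.06e-06), while the related Ppargc1b rose by 1.40 (SE 0.27, adjusted p = 8.395e-05). From day 8 to day 10, Ppargc1b fell by 0.91 and Esrrb, a receptor known in mouse for its role in placental development, was at least 6.59-fold higher at day 10, where 4 of 4 arrays detected it and 0 of 4 at day 8.

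For 16 of the 64 genes the array had more than 1 detected probe. Over the 209 pairs of a second probe and a comparison, both probes passed in the same direction in 19 and in opposite directions in 0, the brightest probe alone passed in 26 and the other alone in 15. The widest gap was at Ndufb8, a membrane arm subunit chosen here after its values were seen. Its brightest probe rose by 0.50 at day 6 and did not pass at day 12 (difference 0.20), whereas its other probe had -0.25 at day 6 and fell by 1.53 at day 12 (adjusted p = 1.709e-10). Results for Ndufb8, Ndufaf4, Ndufa5 and Atp5a1, and the fall of Ndufs4 from day 8 to day 10, therefore hold for 1 probe only. So do the falls of Ndufv3 at days 6 and 8, of Ndufa8 at day 10 and from day 8 to day 10, and of Cox6a1 from day 8 to day 10. The rises of Ndufb6 at days 6 and 8, Ndufab1 from day 4 to day 6 and Ndufs4 from day 6 to day 8 also rest on 1 probe.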

How the data were processed

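Single-colour Illumina bead arrays of mouse uterus were read from 2 deposited tables. Per the file headers, the authors' non-normalized table gives an intensity and a detection p-value for each of 45281 probes on 33 arrays. The authors' second table, the series matrix, gives log2 values of 16712 probes that are quantile normalized: the sorted values of any 2 arrays differed by at most 0.000972. The scanner software's settings are not given in the sources used here. Replicate numbers of 16 arrays differed between the tables, with 0 in another group.

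From the intensities, background was removed with limma's nec (control mean and spread inferred from the detection p-values, offset 16) and arrays were quantile normalized on the log2 scale. Probes with a detection p under 0.01 on at least 4 arrays were kept, with 1 probe per gene, the one with the highest mean in the series matrix. Probes were named through GEO's platform annotation, and 15248 Entrez identifiers matched RefSeq. limma 3.58.1 (R 4.3.3) fitted 1 mean per group over all 33 arrays with lmFit and eBayes (26 residual degrees of freedom), and p-values were adjusted over 10412 genes. The number of arrays per group, 4 to 6, limits the precision. A probe undetected on all arrays of a group has a bound as its fold. The code was tested on simulated data. The 64 genes, the lists and the tests were chosen with earlier results of these data known. Named are, per complex and comparison, the largest rise and the largest fall past the threshold, isoform pairs and core subunits. Alternatives were another background correction, scaling, filter, probe choice, prior and array weights, a replicate block, and leaving out arrays. Figures were drawn with matplotlib 3.10.9.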

Additional observations from a re-analysis of the deposited data

Results flagged for a closer look

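Of 259 groups of 4 to 6 arrays looked at over the 35 genes named by rule, the array medians and the numbers of detected probes, 23 held an array that stood apart from the rest of its group by Dixon's criterion, or 8.9 per 100, where chance gives about 1 in 20. Of the 23, 11 were day 6 replicate 4 and 3 were non-pregnant replicate 4, the 2 dim arrays, on which 13149 and 13097 probes were detected. Day 6 replicate 4 was high for Ndufs7 (12.07), Ndufab1 (12.55), Uqcr10 (13.87) and Cox6b1 (13.65). It was low for Ndufs4 (9.83), Ndufaf7 (5.87), Uqcrc2 (11.61), Cox5a (11.59), Cox7a2l (9.22) and Atp5b (14.24). Non-pregnant replicate 4 was high for Sdhc (11.78) and low for Cox8b (4.41).

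The remaining 9 lay on 9 other arrays or genes. Ndufs7 was low on day 8 replicate 2 (11.40), Ndufv1 on day 12 replicate 1 (11.67) and Uqcrh on day 12 replicate 5 (11.93). Ndufa10 was high on non-pregnant replicate 2 (11.84), and Ndufaf5 was low on day 4 replicate 2 (7.17). Cox6a2 was high on day 8 replicate 3 (4.84, not detected) and on non-pregnant replicate 6 (6.67). Atp5g3 was low on day 4 replicate 1 (14.01) and Atp5mpl on day 10 replicate 3 (11.72).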

How the results depend on the processing

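None of the 61 named differences changed sign under the alternatives run. The medians of the 64 genes at days 10, 11 and 12 turned sign under some: over all alternatives they ranged from -0.06 to 0.07, -0.03 to 0.08 and -0.02 to 0.08. The balance of rises to falls turned at day 11 with equal medians and cyclic loess. At day 12 it turned in the series matrix and without the 2 dim arrays (13 rises and 12 falls). Counts of the 64 genes called are given in the order 7 groups together, then days 4, 6, 8, 10, 11 and 12 against non-pregnant uterus, then the steps to days 6, 8, 10, 11 and 12, where the main counts were 40, 2, 23, 31, 20, 18, 21, 5, 5, 17, 2 and 0. Scaling to equal medians gave 10, 0, 6, 17, 4, 6, 8, 0, 0 and 1 for the first 10, and moved the median of the 64 genes to 0.30 at day 4 and 0.38 at day 8; it moved the median of all genes by 0.14 at day 4 and by -0.17 from day 4 to day 6. A minimum of 2-fold gave 8, 0, 1, 2, 3, 3, 3, 0, 0, 0 and 1 for the first 11. Fits on the 2 groups compared gave 0 at day 4, 7 at day 6, 11 at days 10 and 11, and 3, 1, 29, 6 and 2 at the 5 steps. Array weights gave 12 at day 4 and 22, 13, 40, 12 and 2 at the steps, again without a share of all genes beside them. Leaving out both dim arrays gave 10 at day 4 and 8, 8, 26, 6 and 1 at the steps. Among the alternatives, only that fit had its share of all genes worked out. Cyclic loess gave 15 at day 6 and 11 for day 10 against day 8. The series matrix gave 4 and 1 for the last 2 steps. At day 4, no background correction gave 0 and a trended, robust prior gave 1. Day 4 replicates 2 and 3, and non-pregnant replicates 2 and 3, were the closest pairs of arrays; averaged, they gave 0 at day 4 and 3 from day 4 to day 6.

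Leaving out each array in turn gave 36 to 45, 0 to 5, 15 to 30, 26 to 35, 14 to 25, 13 to 23, 19 to 25, 2 to 7, 2 to 6, 13 to 22, 2 to 6 and 0 to 1 calls in the same order. The medians ranged over 0.06 to 0.14 at day 4, 0.12 to 0.25 at day 6, 0.20 to 0.29 at day 8, -0.06 to 0.03 at day 10, 0.00 to 0.08 at day 11 and 0.01 to 0.07 at day 12. The step to day 6 had 2 without day 4 replicate 2 and 3 without day 4 replicate 3, the step to day 8 had 2 without day 8 replicate 2 and 3 without day 8 replicates 1 or 4, and the step to day 11 had 6 without day 6 replicate 4. At day 4 the count was 0 without day 4 replicates 3 or 4 and 5 without non-pregnant replicate 4. Of the 2013 named differences so recomputed 1890 passed. Most same-numbered arrays did not deviate together (correlation over 0.1 in 19 of 88 pairs, own number the closest in 21 of the 88). Some did: correlations reached 0.43 between non-pregnant uterus and each of days 4 and 6. For days 8 and 12, 3 of 4 pairs were over 0.1. With a replicate block the day 4 count was 1 and 55 of 61 named differences passed. Near-background signal limits Cox6a2, Cox8b, Cox7b and Sdhd. The causes of these changes were not tested.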
